A study of Mus musculus with 12 samples.

Results

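The expression of 9 genes of B cells, immunoglobulins and major histocompatibility complex class II (MHC II) was examined in mouse skeletal muscle after injection of the chemokines IL-8 or KC. The genes were the immunoglobulin genes Igkc and Ighm, the B-cell genes Cd79a, Cd79b and Ms4a1, and the MHC II genes Cd74, H2-Aa, H2-Ab1 and H2-Eb1, matched by gene symbol. All 9 were found among 23185 array entries with 1 symbol, out of 25206 entries in all. They were picked with results of these arrays known, among them a lower value of Igkc in IL-8-injected mice, so the IL-8 against vehicle values below describe the choice and are no test of it. Affymetrix GeneChip Mouse Gene 2.0 ST arrays gave 1 log2 value per gene for 3 vehicle-injected, 4 KC-injected and 5 IL-8-injected mice. KC is the mouse chemokine Cxcl1 and IL-8 was the recombinant human protein, each at 50 µg/kg in 0.1% BSA, and vehicle mice received the BSA alone, all by intraperitoneal injection on alternate days over 6 days. The vehicle and IL-8 arrays were of tibialis anterior (TA) muscle from male C57BL/6J mice aged 8 weeks, collected on day 7. For KC mice the labels give only skeletal muscle, and neither their age nor the day of collection was found in the sources read. Whole muscle was measured, so fewer cells of a type and less RNA per cell cannot be told apart.

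A B cell carries an antibody on its surface, built from heavy chains such as the mu chain encoded by Ighm and light chains such as the kappa chain, whose constant part is encoded by Igkc. The antibody signals through Cd79a and Cd79b, and Ms4a1 encodes CD20, the surface protein by which B cells are commonly recognised. MHC II proteins are pairs of an alpha and a beta chain that display peptides to CD4 T cells. H2-Aa and H2-Ab1 encode the alpha and beta chains of I-A, H2-Eb1 encodes the beta chain of I-E, and Cd74 encodes the invariant chain that guides them through the cell. B cells, macrophages and dendritic cells make MHC II, so these 4 genes are not particular to B cells. In resting muscle such cells lie between the fibers and are few. MHC II genes are switched on together by the coactivator Ciita, which interferon gamma induces.

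All arrays carried the marks of muscle, and 3 also held high liver transcripts. Acta1, the actin of skeletal muscle fibers, was at 11.91 to 12.47 on the log2 scale over the 12 arrays, and Ckm, the muscle creatine kinase, was at 11.92 to 12.58. The liver's albumin gene Alb reached 10.15 in vehicle replicate 2, 9.78 in vehicle replicate 4 and 7.70 in IL-8 replicate 1, and ranged from 3.14 to 5.36 elsewhere. These 3 are called the liver-transcript arrays, and the part of the liver signal in the results below was not tested beyond the values given with and without these arrays. The median over all genes was 3.36 to 3.48 in vehicle, 3.31 to 3.44 in KC and 3.32 to 3.38 in IL-8 arrays. Cd79a, Cd79b and Ms4a1 had a mean value below the median of all genes, while the other 6 members lay above it. Of 29 further B-cell genes 21 had a mean value at or below that median and 8 above it. These positions describe the signal of each gene's probes, which differ in brightness, and do not rank the genes by abundance. Precision is limited by the number of arrays.

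Igkc was the member that differed most with IL-8. Vehicle replicates 1, 2 and 4 had log2 values of 5.24, 4.75 and 4.77. It was 3.47, 6.55, 4.87 and 3.87 in KC replicates 1 to 4, and 4.03, 3.21, 3.87, 3.96 and 3.60 in IL-8 replicates 1 to 5. All IL-8 arrays were below all vehicle arrays, whereas the KC arrays ranged from below most IL-8 arrays to above every vehicle array. The mean was 4.92 ± 0.28 (SD, n = 3) with vehicle, 4.69 ± 1.37 (SD, n = 4) with KC and 3.73 ± 0.34 (SD, n = 5) with IL-8. IL-8 minus vehicle was -1.19 (standard error 0.20), a 2.28-fold lower level. Igkc was the 1 member of 9 called in this comparison, where a call needs a limma p, adjusted by Benjamini-Hochberg over all genes, of 0.1 or less and a fold change of 1.5 or more, and 2.55% of all genes were called. Since Igkc was picked on these arrays, nothing is read from that count. The call was lost on leaving out vehicle replicate 2, vehicle replicate 4, or any 1 of IL-8 replicates 2 to 5. Without vehicle replicate 2, vehicle replicate 4 or any 1 of IL-8 replicates 2 to 4, 0 of all genes were called. Without IL-8 replicate 5, 3 higher and 4 lower genes were called. The Igkc call held in 8 of 22 alternatives, and in all 22 the difference was between -1.59 and -1.03. Within the liver-transcript arrays the Igkc difference was -0.73 (1 IL-8 against 2 vehicle arrays), and among the others it was -1.59 (4 against 1).

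**Figure D1:**
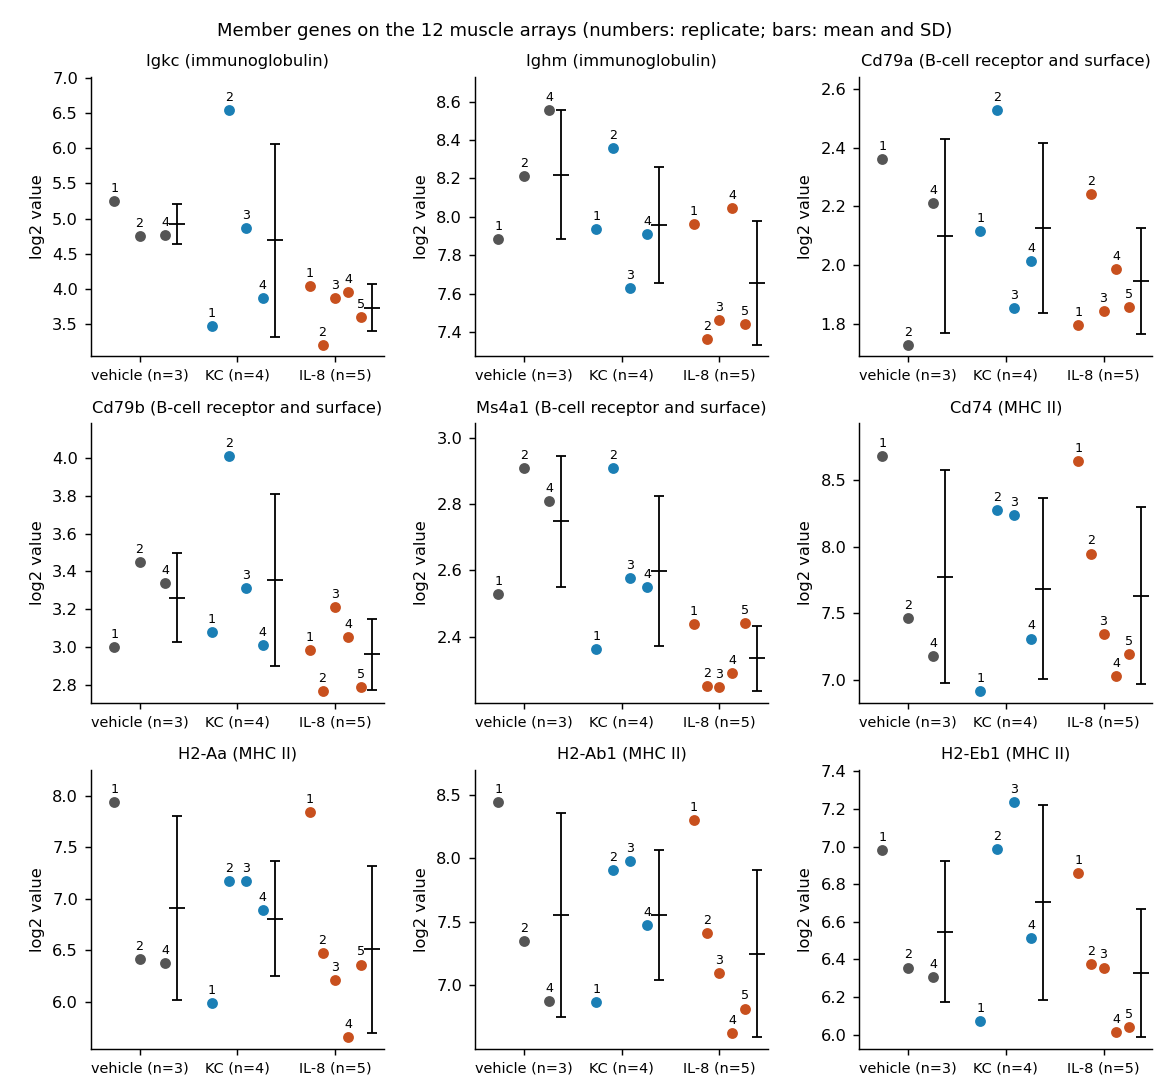
Log2 value of each of the 9 member genes (y axis, own scale per gene) in the vehicle (grey), KC (blue) and IL-8 (orange) arrays. Numbers name the replicate, and the bar to the right of each group is the mean with its SD. For Igkc the 5 IL-8 arrays sit at 3.21 to 4.03, below the 3 vehicle arrays at 4.75 to 5.24, while for the MHC II genes each group holds high and low arrays.

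Ighm had a pooled SD within groups of 0.32, against 0.83 for Igkc, a gap that lay in the KC arrays. The SDs of Ighm and Igkc were 0.34 and 0.28 with vehicle, 0.30 and 1.37 with KC and 0.32 and 0.34 with IL-8. It read 7.89, 8.21 and 8.56 for vehicle replicates 1, 2 and 4, then 7.93, 8.36, 7.63 and 7.91 for KC replicates 1 to 4 and 7.96, 7.37, 7.46, 8.05 and 7.44 for IL-8 replicates 1 to 5. IL-8 replicates 2, 3 and 5 lay below every other array, and IL-8 replicates 1 and 4 lay within the vehicle range, so the groups overlapped. IL-8 minus vehicle was -0.56 (standard error 0.21), and Ighm was not called. Within the liver-transcript arrays it was -0.42 (1 IL-8 against 2 vehicle arrays), and among the others -0.31 (4 against 1).

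The genes of the B-cell receptor and surface had values below the median of all genes, and of them Ms4a1 had the narrowest spread within groups. Cd79a, a signalling chain of the receptor, read 2.36, 1.73 and 2.21 for vehicle replicates 1, 2 and 4, then 2.12, 2.53, 1.85 and 2.01 for KC replicates 1 to 4 and 1.80, 2.24, 1.85, 1.99 and 1.86 for IL-8 replicates 1 to 5. Vehicle replicate 2 was the lowest of all 12 arrays and KC replicate 2 the highest. Cd79b, its partner chain, was at 3.00, 3.45 and 3.34 with vehicle, at 3.08, 4.01, 3.31 and 3.01 with KC and at 2.98, 2.77, 3.21, 3.05 and 2.79 with IL-8, in the same order of replicates. KC replicate 2 again stood highest and the groups overlapped. Ms4a1 was at 2.53, 2.91 and 2.81 with vehicle, at 2.36, 2.91, 2.58 and 2.55 with KC and at 2.44, 2.25, 2.25, 2.29 and 2.44 with IL-8. Every IL-8 array of Ms4a1 was below every vehicle array, and KC replicate 1 was below the highest IL-8 arrays. With Igkc, this made 2 of the 9 members whose IL-8 and vehicle arrays did not overlap, beside 11.0% of all genes. IL-8 minus vehicle was -0.15 (standard error 0.16) for Cd79a, -0.30 (0.15) for Cd79b and -0.41 (0.12) for Ms4a1, none of them called. In the same order it was -0.17, -0.41 and -0.42 within the liver-transcript arrays (1 IL-8 against 2 vehicle arrays). Among the others (4 against 1) it was -0.38, -0.04 and -0.22. The median difference of all genes at or below the median level was -0.14, so dim genes as a whole differed slightly between these groups as deposited. Their mean was 2.375 and 2.332 in vehicle replicates 2 and 4, both liver-transcript arrays. It was 2.161 in vehicle replicate 1, close to the IL-8 arrays at 2.113 to 2.157. After quantile normalization of the deposited values that median was 0.0067, the median of these 3 members moved from -0.30 to -0.20, and Cd79a turned to 0.011.

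KC replicate 2 was the highest of the 12 arrays for Igkc, Cd79a, Cd79b and Ms4a1 and the second highest for Ighm. Over the 12 arrays the 10 pairs among these 5 genes had Pearson correlations of 0.22 to 0.85 with a median of 0.62, and Igkc went most closely with Cd79b (0.85) and Ms4a1 (0.78). Cd79a was the loosest of them. Its correlation with Igkc was 0.49 over all arrays and -0.37 without vehicle replicate 1 and KC replicate 2, the arrays farthest from the median of the 9-gene mean. Correlations are given as descriptions, since arrays of a group share their treatment and genes share the array.

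The MHC II genes spread widely within every group. Cd74 read 8.68, 7.46 and 7.17 for vehicle replicates 1, 2 and 4, then 6.91, 8.28, 8.24 and 7.31 for KC replicates 1 to 4 and 8.65, 7.95, 7.34, 7.02 and 7.19 for IL-8 replicates 1 to 5. H2-Aa was at 7.94, 6.41 and 6.38 with vehicle, at 5.99, 7.18, 7.17 and 6.89 with KC and at 7.84, 6.48, 6.21, 5.66 and 6.36 with IL-8. Vehicle replicate 1 and IL-8 replicate 1 were the highest of the 12 arrays for both genes, and KC replicates 2 and 3 came next. H2-Ab1 was at 8.44, 7.35 and 6.87 with vehicle, at 6.87, 7.91, 7.98 and 7.47 with KC and at 8.30, 7.41, 7.10, 6.62 and 6.82 with IL-8. H2-Eb1 was at 6.98, 6.36 and 6.31 with vehicle, at 6.07, 6.99, 7.24 and 6.51 with KC and at 6.86, 6.38, 6.36, 6.01 and 6.04 with IL-8. The same 4 arrays, vehicle replicate 1, KC replicates 2 and 3 and IL-8 replicate 1, were the highest for all 4 MHC II members. These arrays come from each of the 3 groups, and 1 of them is a liver-transcript array. Over all genes tested, 55 (0.237%) had these 4 arrays highest, a pattern noticed after the values were seen. Among the listed genes these included Ctss, Cd68, Lyz1, H2-DMb2 and Cd180, named for the same reason.

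The spread of these genes within groups was among the widest on the arrays. The pooled SD within groups was 0.76 for H2-Aa, 0.70 for Cd74, 0.65 for H2-Ab1 and 0.42 for H2-Eb1, larger than that of 99.3%, 99.1%, 98.7% and 92.3% of genes. Igkc had the widest pooled SD of the 9 with 0.83, above 99.5% of genes, and Ms4a1 the narrowest with 0.17, above 28.1%. The SD of Igkc was 0.28 with vehicle, 1.37 with KC and 0.34 with IL-8. Against the spread of the MHC II genes, IL-8 minus vehicle was -0.14 (standard error 0.41) for Cd74, -0.40 (0.47) for H2-Aa, -0.30 (0.41) for H2-Ab1 and -0.22 (0.22) for H2-Eb1. The direction depended on which arrays were set against each other. Within the liver-transcript arrays, where IL-8 replicate 1 is set against vehicle replicates 2 and 4, the differences were 1.33 for Cd74, 1.45 for H2-Aa, 1.19 for H2-Ab1 and 0.53 for H2-Eb1. Among the other arrays, where IL-8 replicates 2 to 5 are set against vehicle replicate 1, they were -1.31, -1.76, -1.45 and -0.78 in the same order. The liver marker mean itself had a correlation of 0.09 with the mean of the 4 MHC II members over the 12 arrays. With other members it was higher, at 0.58 for Ighm, 0.17 for Igkc and 0.20 for the mean of Cd79a, Cd79b and Ms4a1. Without the 2 arrays farthest from the median of each, these were 0.39, 0.66 and 0.36, and the MHC II value was -0.03.

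The 4 MHC II members moved together across mice. Their 6 pairs had Pearson correlations of 0.86 to 0.96 over the 12 arrays, and of 0.88 to 0.98 after each group's mean was taken off. The 20 pairs between an MHC II gene and a B-cell or immunoglobulin gene had correlations of -0.05 to 0.65 with a median of 0.22, the highest between Igkc and H2-Eb1. In the RefSeq annotation H2-Ab1, H2-Aa and H2-Eb1 follow one another with no other protein-coding gene between them. MHC II genes share a promoter module in which an X box, bound by the RFX factors, precedes a Y box, bound by NF-Y, and the module is where Ciita acts. The promoters of H2-Aa and H2-Eb1, from RefSeq on GRCm38.p6, are shown because these genes moved together, each as the 250 bases before the start site on the coding strand. Capitals mark the start of an X box (GCAACT) and then a Y box with its flank (CTGATTGG), letters chosen after the sequences were read.
H2-Aa, chr17:34287824-34288073, minus strand: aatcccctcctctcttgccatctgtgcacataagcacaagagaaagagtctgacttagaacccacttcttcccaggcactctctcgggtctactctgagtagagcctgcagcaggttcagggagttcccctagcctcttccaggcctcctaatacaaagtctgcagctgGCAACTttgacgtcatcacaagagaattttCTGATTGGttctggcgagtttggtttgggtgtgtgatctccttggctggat
H2-Eb1, chr17:34305617-34305866, plus strand: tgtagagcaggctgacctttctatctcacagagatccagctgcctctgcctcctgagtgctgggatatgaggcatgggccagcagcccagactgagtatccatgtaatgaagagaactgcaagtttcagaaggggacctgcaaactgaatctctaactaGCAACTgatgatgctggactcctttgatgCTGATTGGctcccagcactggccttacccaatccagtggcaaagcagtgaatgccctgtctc
In H2-Aa the marked X box starts 81 bases and the Y box 51 bases before the start site, and in H2-Eb1 they start 91 and 62 bases before it. The distance between the starts of both boxes was thus 30 and 29 bases. Searched on both strands of 32851 promoters of the same length, GCAACT was found in 9.01% and CTGATTGG in 3.83%, and both on 1 strand in this order within 50 bases in 11 promoters (0.0335%). Besides H2-Aa and H2-Eb1 these were H2-Eb2, with a distance of 29 bases, and 8 that are not MHC II genes. Cd74 and H2-Ab1 were not among them. No promoter of H2-Ab1 was matched, and any of Cd74 was left out by choice when the members' promoters were read. CTGATTGG contains the Y box core ATTGG, which alone was found in 33.8%. A match describes the letters and is no measure of binding.

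Of 16 further genes of the MHC II pathway, 0 were called in any of the 3 comparisons by limma, while 2 higher and 1 lower had an unadjusted p under 0.05 for IL-8 against vehicle, 0 for KC against vehicle and 2 lower for IL-8 against KC. The median log2 difference of these genes was -0.13, -0.0093 and 0.022 in that order, beside -0.071, -0.0043 and -0.047 over all genes. Their mean nevertheless followed the 4 MHC II members across arrays, with a Pearson correlation of 0.93 and a Spearman correlation of 0.80 over 12 arrays. The genes that followed most visibly act on peptides. H2-DMb2, a chain of the H2-DM peptide exchanger, was at 6.04 in vehicle replicate 1, 5.56 in IL-8 replicate 1, 4.98 and 4.73 in KC replicates 2 and 3, and 2.54 to 3.88 in the other arrays. Ctss, cathepsin S, which trims the invariant chain, was at 6.29, 6.31, 6.46 and 6.33 in these arrays in the same order and at 4.84 to 6.01 elsewhere. Ciita had another pattern. It was at 2.64 in KC replicate 3, its lowest array, and at 3.93 in KC replicate 2, its highest. Rfxap, a subunit of RFX, had the smallest p of the list for IL-8 against vehicle, at 4.69 ± 0.20 (SD) in the vehicle arrays and 5.18 ± 0.22 (SD) in the IL-8 arrays (adjusted p = 0.125), and Cd83, which stabilises surface MHC II, was at 4.12 ± 0.30 (SD, n = 4) with KC and 3.68 ± 0.23 (SD, n = 5) with IL-8 (adjusted p = 0.157). H2-DMb2, Ciita and the pattern itself were named after the values were seen.

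**Figure D2:**
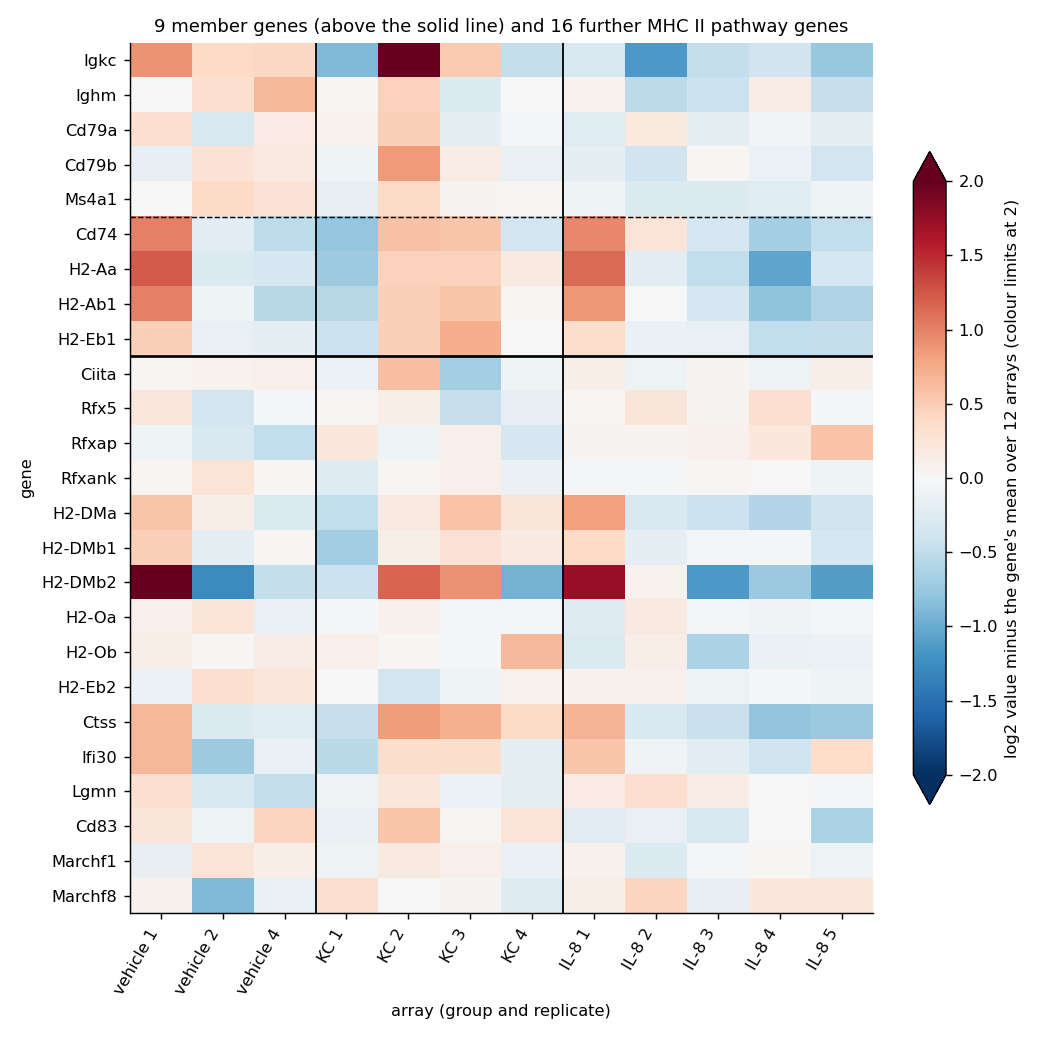
Log2 value minus the gene's mean over the 12 arrays (colour) for the 9 members and the 16 further MHC II pathway genes (rows) in each array (columns, by group and replicate). The dashed line separates the B-cell and immunoglobulin members from the MHC II members, which are reddest in vehicle replicate 1, KC replicates 2 and 3 and IL-8 replicate 1.

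Markers of other blood cells were set beside the MHC II members. The mean of 10 genes common to leukocytes had a Pearson correlation of 0.88 with the MHC II mean over 12 arrays. For 17 macrophage and monocyte markers it was 0.82, and for 11 interferon gamma genes 0.73. The last list held induced genes and the receptor genes Ifngr1 and Ifngr2. Without vehicle replicate 1 and IL-8 replicate 1, farthest from the median of the MHC II mean, these correlations were 0.90, 0.72 and 0.64. Over all 12 arrays red blood cell markers reached 0.62, further B-cell genes 0.61, dendritic cell markers 0.51, T and NK cell markers 0.35, neutrophil markers -0.20 and skeletal muscle markers -0.01. The leukocyte mean was 4.06 to 4.64 in vehicle, 4.04 to 4.77 in KC and 4.01 to 4.62 in IL-8 arrays, and the macrophage mean was 4.33 to 5.03, 4.04 to 4.83 and 4.11 to 4.88. These ranges overlapped between all groups, and 0 genes of either list were called in any comparison by limma. At an unadjusted p under 0.05 the leukocyte list had 1 lower gene for IL-8 against vehicle and 1 lower for IL-8 against KC. The macrophage list had 1 higher and 2 lower for IL-8 against vehicle and 1 lower for KC against vehicle. Over all genes tested there were 5022 for IL-8 against vehicle, 923 for KC against vehicle and 4598 for IL-8 against KC. Of the macrophage list Cd14, a receptor for bacterial lipopolysaccharide, was at 4.27 ± 0.13 (SD) in the vehicle arrays and 3.74 ± 0.15 (SD) in the IL-8 arrays (adjusted p = 0.093), short of the fold change minimum. Mertk, a receptor for dying cells, was at 4.41 ± 0.16 (SD) and 4.82 ± 0.21 (SD) in the same groups (adjusted p = 0.153). Of the leukocyte list Cd53, a tetraspanin, was at 5.20 ± 0.57 (SD) in the vehicle arrays and 4.20 ± 0.50 (SD) in the IL-8 arrays (adjusted p = 0.123). The part of leukocyte number in the MHC II levels was not tested.

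**Figure D3:**
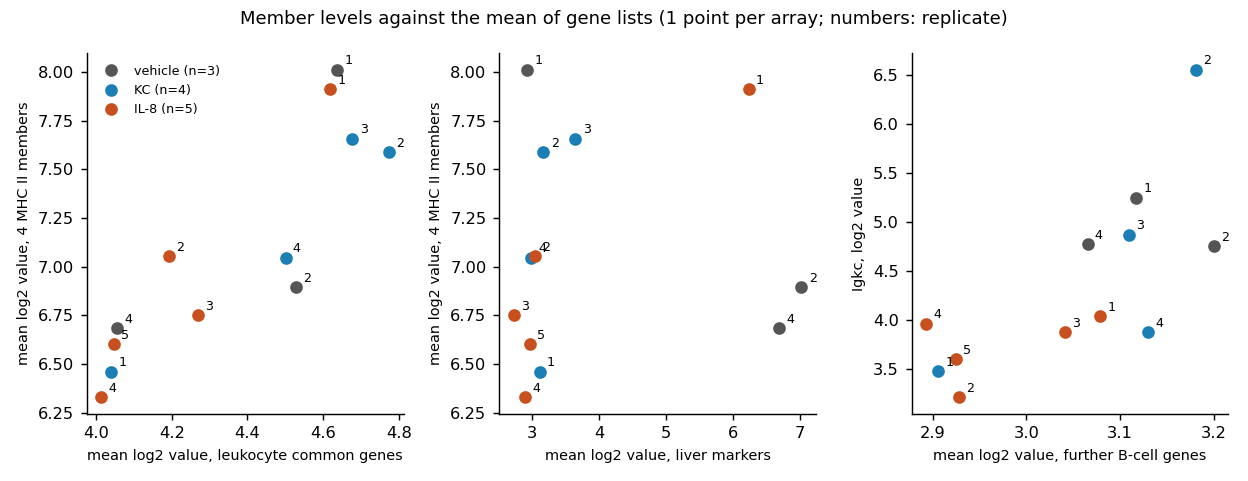
Each point is 1 array, coloured by group and numbered by replicate. The left panel plots the mean log2 value of the 4 MHC II members against the mean of 10 leukocyte genes (Pearson 0.88). The middle panel plots it against the mean of 10 liver markers (0.09). The right panel plots the log2 value of Igkc against the mean of 29 further B-cell genes (0.73). The leukocyte genes gave 0.68 with Igkc.

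The 8 genes whose pattern over the 12 arrays was most like the mean of the 9 members, each centred on its own mean, were Ctss, Cyth4, Fgl2, Dock2, Nckap1l, Clmp, Gas7 and Dennd10, among brighter genes. Their Pearson correlations were 0.87 to 0.91 and their Spearman correlations 0.85 to 0.94. Without vehicle replicate 1 and KC replicate 2 the Pearson correlations were 0.79 to 0.95. Cyth4 had values of 5.47, 5.18 and 5.20 for vehicle replicates 1, 2 and 4, of 4.99, 5.46, 5.32 and 5.24 for KC replicates 1 to 4, and of 5.34, 5.06, 4.86, 4.84 and 5.13 for IL-8 replicates 1 to 5. Its high arrays were vehicle replicate 1, KC replicates 2 and 3 and IL-8 replicate 1. Cyth4 was selected by its correlation with a mean that holds the MHC II members, so these arrays are no separate result.

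No member was called between KC and vehicle. This comparison shares its vehicle arrays with IL-8 against vehicle. By limma 0 of 9 members were called (0 at an unadjusted p under 0.05), beside 0% of all genes (923 at an unadjusted p under 0.05), and 0 members had arrays that did not overlap, beside 4.94% of all genes. KC minus vehicle was -0.23 (95% interval -1.58 to 1.11) for Igkc and -0.26 (-0.73 to 0.21) for Ighm. It was 0.03 (-0.44 to 0.49) for Cd79a, 0.09 (-0.45 to 0.64) for Cd79b and -0.15 (-0.53 to 0.23) for Ms4a1. For the MHC II genes it was -0.09 (-1.02 to 0.85) for Cd74, -0.10 (-1.01 to 0.81) for H2-Aa, 0.0028 (-0.83 to 0.84) for H2-Ab1 and 0.16 (-0.48 to 0.79) for H2-Eb1. These intervals are wide, and for Igkc, Cd74, H2-Aa and H2-Ab1 they hold changes past the fold change minimum in both directions. The median of the 9 differences was -0.09, beside -0.0043 over all genes.

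IL-8 against KC shares arrays with both other comparisons. By limma it gave 0 called members (1 at an unadjusted p under 0.05), beside 3.02% of all genes (4598 at an unadjusted p under 0.05). It gave 0 members with arrays that did not overlap, beside 6.68%. IL-8 minus KC was -0.96 (95% interval -2.04 to 0.13, adjusted p = 0.311) for Igkc, where KC replicate 1 at 3.47 lay below most IL-8 arrays. Leaving out 1 array moved this difference between -1.36 without KC replicate 1, where Igkc was called (limma, adjusted p = 0.0968), and -0.34 without KC replicate 2, and none of the other alternatives called it. Ms4a1 had the smallest p of the members, with a difference of -0.26 (-0.53 to -0.0040, adjusted p = 0.245), and Cd79b a difference of -0.39 (-0.81 to 0.03, adjusted p = 0.281). The other differences were -0.30 for Ighm, -0.18 for Cd79a, -0.05 for Cd74, -0.30 for H2-Aa, -0.31 for H2-Ab1 and -0.37 for H2-Eb1, with adjusted p of 0.388 to 0.951. All 9 were below 0 with a median of -0.30, beside -0.047 over all genes and -0.081 over genes at or below the median level. The members are correlated across arrays, so their signs are not 9 separate results.

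**Figure D4:**
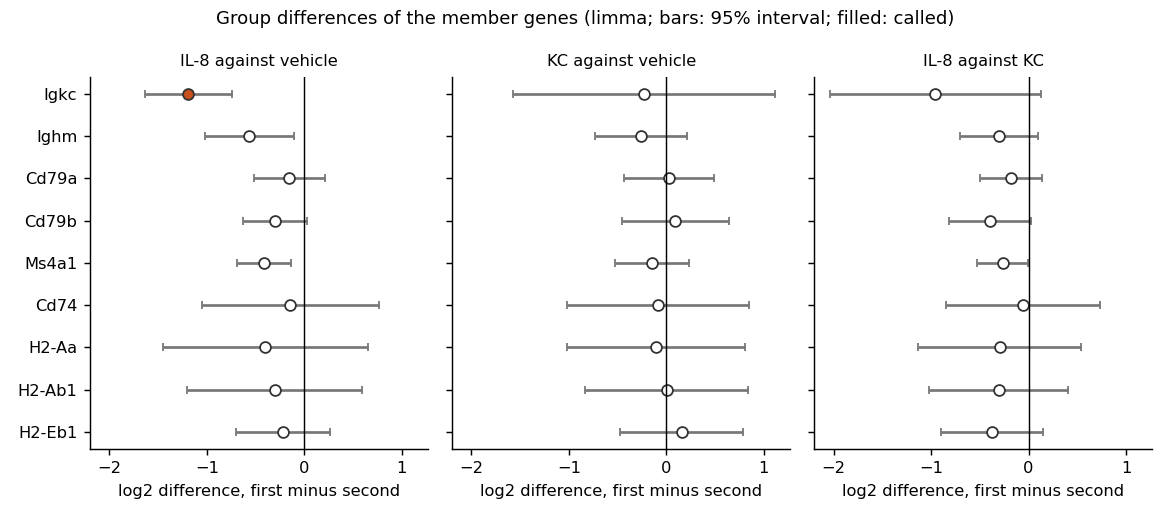
Difference of the group means on the log2 scale (x axis, first group minus second) with its 95% interval by limma for each member (y axis) in the 3 comparisons. The filled point, Igkc for IL-8 against vehicle at -1.19, is the only called member, and the MHC II genes have the wide intervals that their spread between mice gives.

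Besides the 2 members, 197 constant, joining and variable immunoglobulin segments were measured, of which 169 had a mean value at or below the median of all genes and 28 above it. For IL-8 against vehicle 4 of them (2.03%) were called, all lower, beside 2.55% of all genes, and for IL-8 against KC 2 (1.02%), both lower, beside 3.02%. By limma 0 were called for KC against vehicle. At an unadjusted p under 0.05 (limma) there were 49, all lower, for IL-8 against vehicle and 44, all lower, for IL-8 against KC. For KC against vehicle there were 10 in either direction. Over the 23185 genes tested there were 2337 higher and 2685 lower for IL-8 against vehicle and 2030 higher and 2568 lower for IL-8 against KC. For KC against vehicle 923 genes were under this limit. Vehicle replicates 1, 2 and 4 held Ighv1-75, a variable heavy chain segment, at 5.12, 5.80 and 5.49. It was at 4.62, 5.01, 5.01 and 5.94 in KC replicates 1 to 4 and at 3.45, 3.00, 3.96, 4.65 and 4.75 in IL-8 replicates 1 to 5. All its IL-8 arrays were below all vehicle arrays, with a difference of -1.51 (standard error 0.37, adjusted p = 0.095). The kappa segments Igkv4-62 and Igkv6-17 differed by -0.93 (0.21) and -0.70 (0.13), and the heavy chain segment Ighv1-76 by -0.86 (0.22). The calls of these 4 segments were lost under most alternatives. Among these were quantile normalization and leaving out vehicle replicate 2, vehicle replicate 4 or any 1 of IL-8 replicates 2 to 5. The call of Ighv1-75 held in 8 of 22. The mean over the 197 segments was 2.17 to 2.43 in vehicle, 2.18 to 2.38 in KC and 2.07 to 2.13 in IL-8 arrays, so the IL-8 arrays lay below all others. They did so also after quantile normalization (2.12 to 2.18, against 2.19 to 2.32 in the vehicle arrays) and, narrowly, after centring on the array median. After centring, IL-8 replicate 5 was at -1.195 and vehicle replicate 1, the vehicle array without high liver transcripts, at -1.188. The median difference of the segments for IL-8 against vehicle was -0.20 as deposited, -0.11 after centring and -0.07 after quantile normalization, beside -0.14, -0.04 and 0.0067 for all genes at or below the median level. Immunoglobulin segments and H2 genes belong to multigene families, whose probes can read related copies.

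Cells that secrete antibody and cells that attract B cells were described by their markers. Of 10 plasma cell genes 0 were called in any comparison by limma (0 at an unadjusted p under 0.05), and Jchain, which joins secreted antibodies, was at 1.16 to 1.48 in all arrays. Of 29 further B-cell genes 0 were called in any comparison by limma. For IL-8 against vehicle 4 of them were lower at an unadjusted p under 0.05 (limma), beside 2685 of the 23185 genes tested. Arrays of 3 (10.3%) did not overlap, beside 11.0% of all genes. The median difference of the 29 genes was -0.17, beside -0.14 for all genes at or below the median level. Cd55 had the smallest p of the list, at 6.30 ± 0.16 (SD) with KC and 5.87 ± 0.25 (SD) with IL-8 (limma, adjusted p = 0.128). Ly86, which pairs with the B-cell surface protein Cd180 and is also made by macrophages, was at 5.19 ± 0.61 (SD) in the vehicle arrays and 4.38 ± 0.48 (SD) in the IL-8 arrays (adjusted p = 0.172). The mean of these 29 genes was 3.07 to 3.20 in vehicle, 2.91 to 3.18 in KC and 2.89 to 3.08 in IL-8 arrays. It had a Pearson correlation of 0.73 with Igkc over the 12 arrays. Other lists came near this, with 0.68 for leukocyte genes, 0.68 for interferon gamma genes, 0.63 for T and NK cell markers and 0.62 for macrophage markers. By Spearman correlation T and NK cell markers (0.73) and leukocyte genes (0.72) were above the further B-cell genes (0.67). The link with Igkc was thus not particular to the B-cell list. Of 6 genes of lymph node stroma, Cxcl13, the chemokine that draws B cells into follicles, was called for IL-8 against vehicle. Vehicle replicates 1, 2 and 4 had 3.98, 4.40 and 4.15 and IL-8 replicates 1 to 5 had 3.58, 3.34, 3.72, 3.52 and 3.49, and all IL-8 arrays were below all vehicle arrays. The difference was -0.64 (standard error 0.13, adjusted p = 0.091), and the call held in 7 of 22 alternatives, not after quantile normalization nor without vehicle replicate 2, vehicle replicate 4 or any 1 of IL-8 replicates 2 to 5. Cxcl9, a chemokine induced by interferon gamma, was called for IL-8 against KC at 3.24 ± 0.17 (SD, n = 5) against 3.85 ± 0.26 (SD, n = 4), a difference of -0.61 (standard error 0.14, adjusted p = 0.071), and this call held in 8 of 22 alternatives, not without any 1 of KC replicates 2 to 4 or of IL-8 replicates 2 to 5. These lists were chosen with results of these arrays known and support no direction.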

How the data were processed

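In the files used here the authors deposited log2 RMA values, 1 for each gene on each array, for which the submitters' processing notes name affy 1.36.1 and R 2.15.1. RMA subtracts background, quantile normalizes probes and combines those of a gene, which removes most differences in overall brightness. It is not stated whether all 12 arrays went through RMA together. GEO's platform annotation, which can be old, gave 1 symbol to 23185 entries, which were tested, and several to 0. The 2021 unnamed entries entered only the fit of every entry. All arrays were kept. Array pairs, 66 in all, correlated at 0.953 to 0.991 across genes. The labels describe separate injected mice and give no more on sampling, so p-values measure the spread between these arrays.

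Each pair of groups was compared on its own arrays with limma 3.58.1 in R 4.3.3 (lmFit and eBayes). Calls needed an adjusted p (Benjamini-Hochberg, over all genes tested) no higher than 0.1 and a fold change no lower than 1.5. The paper gives these limits for q-values of GenePattern's comparative marker selection, which was not run. The members and gene lists were chosen with earlier results of these data known. Genes named are the 9 members, the 8 most like them, Alb and muscle markers. From each list at most 4 called genes, or up to 2 of smallest p where none was called, are named. Jchain was named outside these rules, and others are marked as named after their values were seen. The dendritic cell, neutrophil, T and NK cell, MHC I and red blood cell lists had 0 genes called by limma in the 3 comparisons. Alternatives were 1 fit of all 12 arrays, every entry, dim genes left out, quantile normalization, centring on the median, an intensity trend, array weights, the methods' t-test (an unpaired t-test named for comparisons in general and not for the arrays, run here with unequal variances, a choice the paper does not state), an exact permutation test, a stricter adjusted p (0.05), no limit on fold change, the replicate number as a block and leaving out each array. The liver-transcript arrays as a block, and their omission, were chosen after the values were seen. The scripts were tested on simulated data with seed 1. Promoters are from RefSeq (GRCm38.p6). They matched 3 of the 9 members, with any promoter of Cd74 left out by choice. Plots were made in matplotlib 3.10.9 with numpy 2.4.6.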

Additional observations from a re-analysis of the deposited data

How the results depend on the processing

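Each array in turn was left out, and each other choice was changed by itself. For IL-8 against vehicle the number of called members was 0 with all 12 arrays in 1 fit, after quantile normalization, by the methods' t-test (1 at an unadjusted p under 0.05), by the exact permutation test (2 unadjusted), at an adjusted p of at most 0.05, with the replicate block, with the liver-transcript arrays as a block and without those arrays, by limma with 1 to 5 members at an unadjusted p under 0.05, and it was 2 with array weights (Igkc and Ighm). With 1 array left out it was 0 to 2. It was 2 without vehicle replicate 1. It was 0 without vehicle replicate 2, without vehicle replicate 4 or without any 1 of IL-8 replicates 2 to 5 (2 to 4 unadjusted). Over all genes the count was 3338 without vehicle replicate 1, and array weights gave 1209 higher and 874 lower. Without vehicle replicate 2, vehicle replicate 4 or any 1 of IL-8 replicates 2 to 4, 0 of all genes were called. The t-test, the permutation test, the replicate block and the liver-transcript block also called 0 of all genes. Igkc kept its direction in all 22 alternatives. The median over the members was -0.78 without the liver-transcript arrays, where vehicle replicate 1 is the only vehicle array left and is assumed to vary like the others. For IL-8 against KC 0 members were called under each alternative but 1 array left out in turn, which gave 0 to 1 (Igkc without KC replicate 1), and for KC against vehicle 0 under each. Over all genes tested the count of 592 for IL-8 against vehicle ranged from 0 to 3338 over the alternatives, that of 700 for IL-8 against KC from 0 to 1741, and that of 0 for KC against vehicle reached 92. Centring on the array median gave 554 higher and 106 lower genes for IL-8 against vehicle, beside 406 and 186.

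Small differences changed sign. For IL-8 against vehicle Cd79a was 0.011 after quantile normalization, and Cd74 was 0.022 with array weights and 0.101 with the replicate block. Leaving out 1 array gave -0.44 to 0.31 for Cd74, -0.73 to 0.11 for H2-Aa and -0.64 to 0.14 for H2-Ab1, the highest value without vehicle replicate 1 in each case. For KC against vehicle H2-Ab1 was -0.086 after quantile normalization, array weights gave 0.027 for Igkc, 0.27 for Cd74 and 0.21 for H2-Aa, and the replicate block gave -0.14 for H2-Ab1 and -0.022 for H2-Eb1. Without the liver-transcript arrays the values were 0.071 for Ighm, -0.23 for Cd79a, 0.071 for Ms4a1, -0.89 for H2-Ab1, -0.28 for H2-Eb1 and 0.0040 for the liver gene Ttr. Leaving out 1 array gave -0.85 to 0.17 for Igkc, -0.16 to 0.16 for Cd79a, -0.13 to 0.21 for Cd79b, -0.39 to 0.37 for Cd74, -0.37 to 0.41 for H2-Aa, -0.34 to 0.45 for H2-Ab1 and -0.022 to 0.37 for H2-Eb1. For IL-8 against KC Cd74 was 0.056 with the replicate block, and -0.31 to 0.14 with 1 array left out. The causes were not tested. Samples share only a replicate number. Same-numbered arrays deviated from their group means with correlations of -0.32 to 0.0024 for IL-8 against vehicle, -0.17 to 0.36 for KC against vehicle and -0.37 to 0.12 for IL-8 against KC, so the numbers were not taken to pair the samples. No array met Dixon's limit for standing apart in the 18 sets of values checked. With 3 to 5 arrays in a group this cannot exclude an array that stands apart. The liver transcripts do set arrays apart, with Alb at 7.70 in IL-8 replicate 1 and at 3.14 to 3.69 in the other IL-8 arrays.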
